A study of Mus musculus with 73 samples.

Results

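The G2 and mitosis genes described here are 34 mouse genes whose products start mitosis, build the spindle, hold chromosomes to it, shape the chromosomes or end the division. They were chosen by name for these functions and not by measured values, although earlier results of these data were known at that time. All 34 were found among the 25220 gene symbols of an RNA-seq table of early embryos, and all 34 reached the level needed for testing. The study concerns where the histone variant H3.3 lies in the genome of mouse oocytes and early embryos. RNA was sequenced in 3 libraries of p150DN 8-cell embryos, 2 of EGFP blastocysts and 3 of EGFP 8-cell embryos. All were embryos of a hybrid C57BL/6 / C3H background kept in KSOM medium, and the EGFP embryos are the controls. Chaf1a encodes p150, the largest protein of the chromatin assembly factor CAF-1, which places histone H3 and H4 on newly copied DNA. p150DN names a dominant-negative form of it, and the sources used here do not give how it was introduced or how many embryos made a library.

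The kinase CDK1, bound to cyclin A or cyclin B, drives cells into mitosis. WEE1 holds CDK1 inactive by phosphorylation and the CDC25 phosphatases release it. The spindle checkpoint keeps CDC20 from switching on the anaphase-promoting complex until kinetochores are attached, and that complex then marks cyclin B and securin for destruction. Transcripts of many of these genes peak in G2 and mitosis. The oocyte also stores mRNAs of several of them for meiosis and the early cleavage divisions, and the embryo's own transcription replaces that store as cleavage proceeds.

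Chaf1a itself stood at 165, 254 and 238 FPKM (fragments for each kilobase of a gene, with the total of counted fragments set equal in each library) in p150DN 8-cell libraries, 26.5 and 27.2 FPKM in EGFP blastocyst libraries, and 27.7, 30.2 and 28.8 FPKM in EGFP 8-cell libraries (p150DN minus EGFP 8-cell, log2 fold change 2.86 ± 0.17 SE, limma adjusted p = 5.47e-05). The values do not separate the embryo's own Chaf1a from an introduced sequence. Libraries held 16578221 to 22488477 counted fragments, and a member rested on 217 to 38429 of them in a library. More genes lay above 0 in p150DN replicates 2 and 3 (20465 and 21282) than in the other 6 libraries (17310 to 18991). Separate cultures or litters are not stated for the replicates, so the p-values cover the spread among these libraries alone, part of which may be technical. Summed markers of trophectoderm, the outer layer of the blastocyst (16 genes), stood at 496 to 803 FPKM in p150DN, 1614 to 1674 FPKM in blastocyst and 272 to 293 FPKM in EGFP 8-cell libraries, with Elf5 below 1 FPKM in all 8. Of 13 tested in p150DN, 9 were higher and 1 lower than in EGFP 8-cell embryos (limma adjusted p below 0.05). Of 15 tested in blastocysts, 13 were higher and 1 lower. Tead4 went against the sum, at 52.9 to 69.1, 53.3 to 57.4 and 138 to 151 FPKM in p150DN, blastocyst and EGFP 8-cell libraries. Summed transcripts typical of the oocyte store (18 genes) stood at 81 to 158, 24.8 to 25.3 and 187 to 295 FPKM in the same groups, and Figla was below 1 FPKM in all 8. Of 17 store transcripts tested, 7 were lower in p150DN and 10 did not pass, and in blastocysts all 17 were lower. Omt2b alone stood at 19, 72.5 and 11.2 FPKM in EGFP 8-cell libraries. Inner cell mass markers (12 genes) summed to 658 to 930.2, 1028 to 1076 and 605 to 815 FPKM in p150DN, blastocyst and EGFP 8-cell libraries. Pou5f1 alone gave 389 to 535, 589 to 625 and 235 to 391 FPKM of these. Of 11 tested in p150DN, 4 were higher and 3 lower, and of 12 in blastocysts, 5 and 4. Over all genes tested, 24.6% were higher and 9.68% lower in p150DN, and 42.6% and 24.9% in blastocysts. Of 12 cumulus and granulosa markers, 11 lay below 1 FPKM in every library, and Amhr2 was the exception. The part of these differences in the results on the members was not tested. In RNA from bulk embryos, fewer cells of a type and less RNA per cell cannot be told apart.

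In p150DN 8-cell embryos, 7 of the 34 genes were higher and 9 lower than in EGFP 8-cell embryos, and 18 did not pass the test (limma on log2(FPKM + 1), adjusted p below 0.05 over all genes tested). The 7 that rose were the condensin genes Ncapg, Ncaph and Smc2, the kinetochore gene Cenpf, and the spindle checkpoint genes Bub1, Bub1b and Mad2l1. The 9 that fell were Ccnb1, Cdc25b, Cdc25c, Plk1, Ube2c, Tpx2, Prc1, Cenpe and Mki67. Of the members 47.1% were called, 20.6% higher and 26.5% lower, against 34.3% of all 11730 genes tested, 24.6% higher and 9.68% lower. The share of members that rose was thus near that of all genes. The median log2 fold change was -0.05 over the members and 0.19 over all genes tested. The libraries of both groups did not overlap in 24 members, 11 higher and 13 lower in p150DN. Over all genes tested 49.8% did not overlap, 34.3% higher and 15.5% lower.

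How libraries are scaled to each other affects the balance of these calls, and the scalings tried did not give the same result. After quantile normalization the median of all genes was -0.03, with 1779 genes higher and 1833 lower in p150DN. There 6 members were higher and 10 lower. The rise of Bub1 was lost (limma adjusted p = 0.0949), the other rises were kept, and Wee1 was newly lower (0.0246). After median-of-ratios scaling the median of all genes moved to -0.06, with 1753 genes higher and 2239 lower in p150DN, against 2887 and 1136 on the deposited scale. On that scale 2 members were higher, Ncapg and Ncaph, and 15 were lower, among them all 9 that fell on the deposited scale. Newly lower were Ccna2, Wee1, Aurka, Aurkb, Cdc20 and Kif20a (limma adjusted p = 0.0175 to 0.0338). The rises of Bub1, Bub1b, Mad2l1, Cenpf and Smc2 were lost on that scale (adjusted p = 0.604, 0.323, 0.726, 0.12 and 0.132). Without both p150DN replicates 2 and 3, the same 5 rises and the fall of Ube2c were lost (adjusted p = 0.0526 to 0.182), and 2 members were higher and 8 lower.

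In EGFP blastocysts, 12 of the 34 genes were higher and 13 lower than in EGFP 8-cell embryos, and 9 did not pass. Of the members 73.5% were called, against 67.5% of all 12199 genes tested between the stages, 42.6% higher and 24.9% lower. The members' total was near that background, but 35.3% were higher and 38.2% lower, so the share that fell was above that of all genes. The groups did not overlap in 28 members, 14 higher and 14 lower in blastocysts, and over all genes tested in 79.6%, 49.3% higher and 30.3% lower. Their median was -0.15 on the log2 scale and that of all genes 0.28. Quantile normalization moved the median of all genes to 0.03 and left 11 members higher and 14 lower. Median-of-ratios scaling moved the median of all genes to 0.09, with 4289 genes higher and 3751 lower against 5198 and 3038, and left 7 members higher and 16 lower. Bub1, Ttk, Kif11, Nusap1 and Top2a were no longer called higher on that scale (adjusted p = 0.0628 to 0.307). Aurkb, Plk1 and Mad2l1 were newly lower on it (limma adjusted p = 0.0265 to 0.0426). Both comparisons use the same 3 EGFP 8-cell libraries, so their values are given side by side and not as support for each other. The gene passages below give calls on the deposited scale unless another scaling is named.

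**Figure D1:**
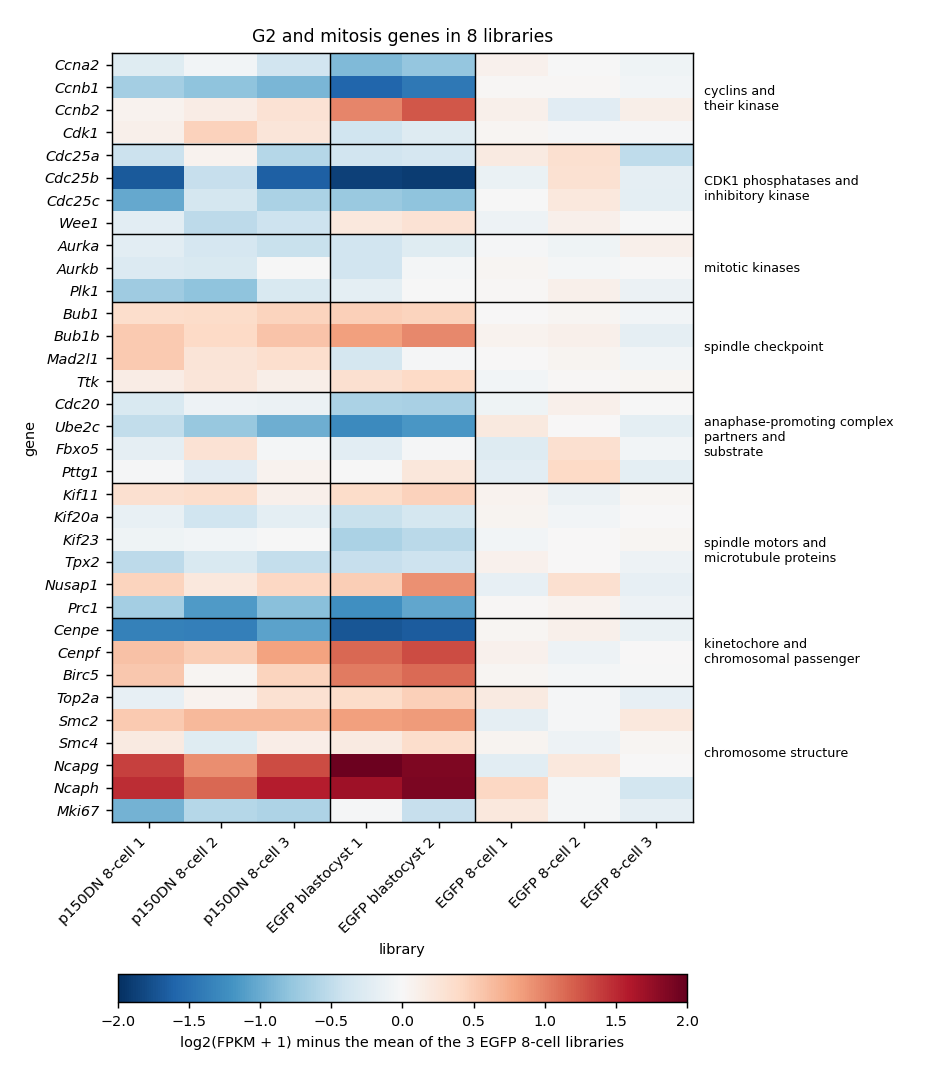
Each row is 1 of the 34 genes, grouped by role, and each column 1 of the 8 libraries. Colour gives log2(FPKM + 1) minus the mean of the 3 EGFP 8-cell libraries, red above and blue below. Ncapg and Ncaph are red in all p150DN and blastocyst libraries, and Ccnb1, Cenpe, Prc1 and Ube2c are blue in all of them.

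Promoters of the members were read from RefSeq (build GRCm38.p6, 250 bases before to 50 after the start) for 27 of the 34 genes. No window was matched for Aurkb, Ccna2, Cdc25c, Kif20a, Smc4, Tpx2 and Wee1. They were searched on both strands for the cell cycle homology region (TTTGAA or TTCGAA, called CHR), which binds the MuvB complex that represses or activates G2 and M genes. They were also searched for CCAAT, bound by the factor NF-Y, and for GCGGGAA, an E2F core. The windows of 6 genes are shown, for 2 pairs of one role that moved in opposite directions between the stages and for 2 single genes, with the CHR and CCAAT matches of either strand in capitals (in Ube2c a pair of CCAAT matches on opposite strands overlaps). Ccnb1 and Ccnb2 are the B-type cyclins, at chr13:100786437-100786736 (minus strand) and chr9:70421505-70421804 (minus strand). Cenpe and Cenpf encode kinetochore proteins, at chr3:135212313-135212612 (plus strand) and chr1:189688037-189688336 (minus strand). Ncapg, at chr5:45669675-45669974 (plus strand), had the largest rise in blastocysts among the members. Ube2c, at chr2:164769679-164769978 (plus strand), fell in both comparisons.
Ccnb1: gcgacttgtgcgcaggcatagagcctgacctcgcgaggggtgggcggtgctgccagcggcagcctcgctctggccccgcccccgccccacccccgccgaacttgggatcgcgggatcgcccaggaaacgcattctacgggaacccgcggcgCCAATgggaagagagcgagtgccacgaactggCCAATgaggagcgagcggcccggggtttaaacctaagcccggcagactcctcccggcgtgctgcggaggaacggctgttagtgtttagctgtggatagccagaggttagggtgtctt
Ccnb2: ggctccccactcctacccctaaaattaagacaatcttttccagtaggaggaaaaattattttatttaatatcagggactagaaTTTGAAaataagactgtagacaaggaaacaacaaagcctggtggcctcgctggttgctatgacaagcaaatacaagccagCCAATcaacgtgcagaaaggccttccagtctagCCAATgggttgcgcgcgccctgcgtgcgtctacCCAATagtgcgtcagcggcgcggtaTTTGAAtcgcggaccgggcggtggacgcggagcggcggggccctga
Cenpe: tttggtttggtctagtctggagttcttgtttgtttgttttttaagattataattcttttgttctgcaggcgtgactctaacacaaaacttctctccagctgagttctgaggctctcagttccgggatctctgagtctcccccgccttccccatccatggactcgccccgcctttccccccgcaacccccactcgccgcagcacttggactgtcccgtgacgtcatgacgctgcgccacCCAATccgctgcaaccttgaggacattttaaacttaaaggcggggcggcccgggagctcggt
Cenpf: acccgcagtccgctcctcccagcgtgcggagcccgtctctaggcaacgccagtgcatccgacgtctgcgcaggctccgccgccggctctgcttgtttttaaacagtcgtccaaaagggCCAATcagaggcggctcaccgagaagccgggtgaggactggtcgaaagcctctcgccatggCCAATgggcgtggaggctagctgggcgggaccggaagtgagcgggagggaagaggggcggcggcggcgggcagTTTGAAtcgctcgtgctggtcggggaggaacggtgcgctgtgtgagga
Ncapg: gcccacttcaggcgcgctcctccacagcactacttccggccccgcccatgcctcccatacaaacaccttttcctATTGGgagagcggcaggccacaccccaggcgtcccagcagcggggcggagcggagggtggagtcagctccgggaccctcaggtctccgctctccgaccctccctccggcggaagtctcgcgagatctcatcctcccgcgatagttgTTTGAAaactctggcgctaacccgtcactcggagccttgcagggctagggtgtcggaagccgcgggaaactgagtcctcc
Ube2c: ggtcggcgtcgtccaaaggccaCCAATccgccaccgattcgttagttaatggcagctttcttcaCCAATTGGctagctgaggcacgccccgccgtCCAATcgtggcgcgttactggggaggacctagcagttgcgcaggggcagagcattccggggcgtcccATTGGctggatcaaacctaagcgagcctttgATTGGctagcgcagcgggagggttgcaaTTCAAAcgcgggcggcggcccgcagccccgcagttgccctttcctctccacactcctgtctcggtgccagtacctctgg

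A CHR was found in 19 of the 27 member promoters (70.4%), against 46.2% of 117 other G2 and mitosis genes and 21.7% of all 27025 genes with a window. CCAAT was found in 22 (81.5%), against 57.3% and 41.1%. Both together were present in 19 members (70.4%), against 29.1% and 8.61%, and all 19 members with a CHR also held CCAAT. In 18 members a CHR lay within 40 bases of the start (66.7%, against 29.9% of the other G2 and mitosis genes and 5.25% of all genes). The E2F core was found in Ncapg alone (3.7%), against 18.8% of the other G2 and mitosis genes and 5.29% of all genes. No motif was matched in Nusap1, Ncaph, Mad2l1, Pttg1 and Birc5. The members that rose and those that fell in p150DN held a CHR equally often, 5 of 7 windows each. Between the stages a CHR was found in 9 of 12 members that rose and in 7 of 9 that fell. The printed pairs, in which only the gene that rose between the stages held a CHR, do not represent this split. Forms of the CHR other than TTTGAA and TTCGAA were not searched, so a window without a match, such as that of Ccnb1 or Cenpe, is not shown to lack the element. A match describes letters and not binding, and RefSeq starts may differ from those used in the embryo.

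**Figure D2:**
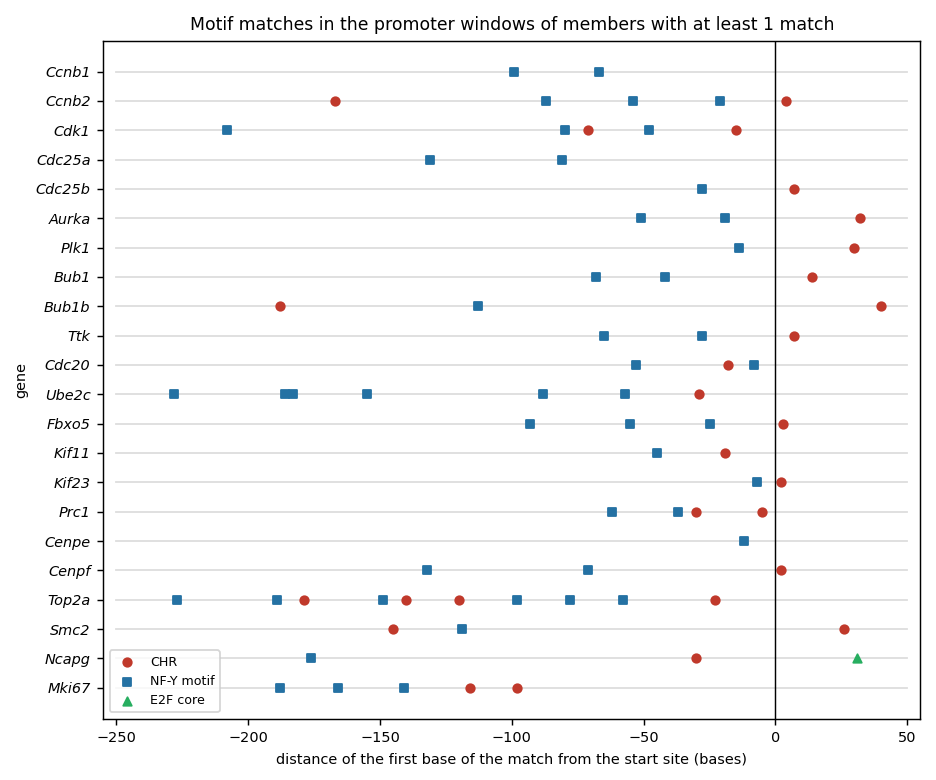
Rows are the 22 members with at least 1 match in the promoter window, and the horizontal axis is the distance of a match from the start site in bases. Circles mark the CHR, squares CCAAT (NF-Y) and the triangle the E2F core. Most CHR matches gather around the start, with others reaching to -188 bases, and all CCAAT matches lie before it. Prc1 has overlapping windows, and its matches are drawn for each window.

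**Figure D3:**
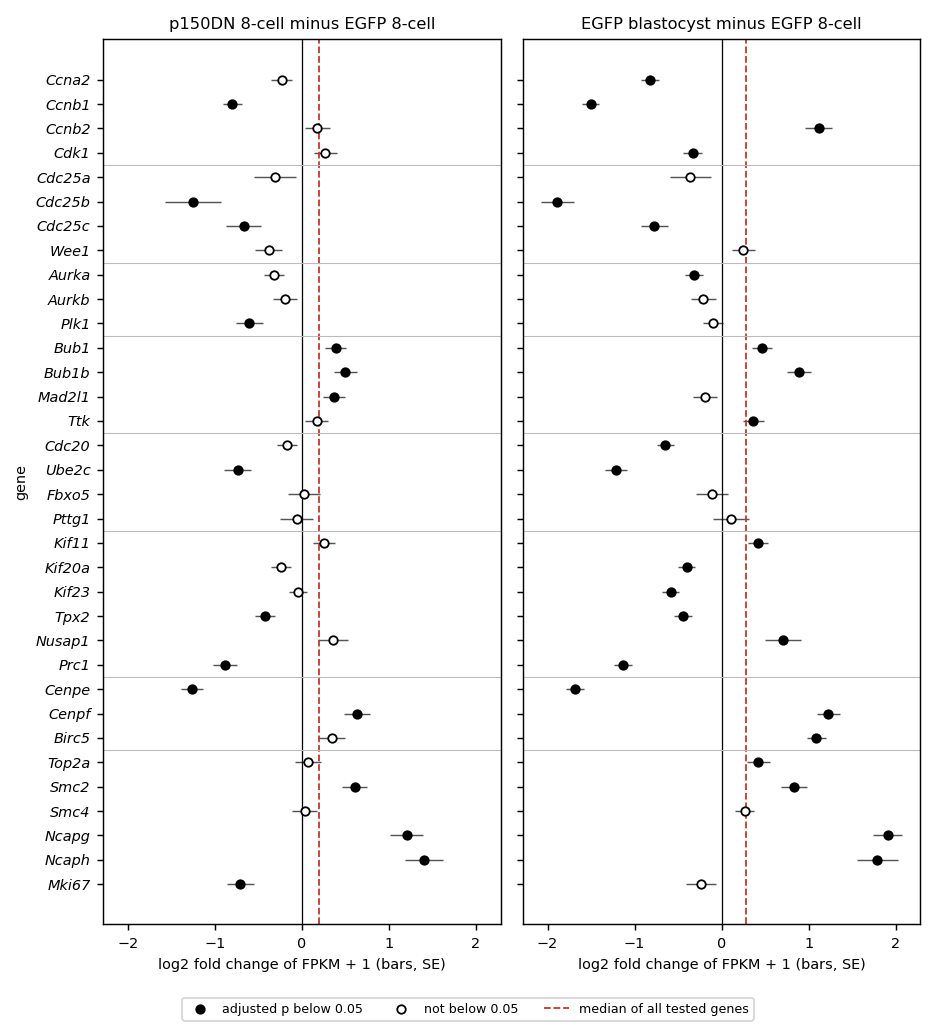
Points are log2 fold changes of FPKM + 1 with SE for the 34 genes, p150DN 8-cell minus EGFP 8-cell on the left and EGFP blastocyst minus EGFP 8-cell on the right. Filled points have an adjusted p below 0.05, and the dashed line is the median of all genes tested (0.19 and 0.28). Ncaph and Ncapg lie farthest right and Cenpe and Cdc25b farthest left in the p150DN panel.

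Among the cyclins and their kinase, Ccnb1 was the member that changed in p150DN embryos, and the other 3 did not pass. Ccnb1 (chromosome 13, 100778739 to 100786486), cyclin B1, the main mitotic partner of CDK1, stood at 177, 163 and 150.4 FPKM in p150DN, 95 and 105 FPKM in blastocyst and 291, 290.2 and 276 FPKM in EGFP 8-cell libraries. Every p150DN library lay below every EGFP 8-cell library and above both blastocyst libraries. The mean was 1.75-fold lower in p150DN than in EGFP 8-cell embryos (-0.81 ± 0.11 SE, limma adjusted p = 0.0012) and 2.85-fold lower in blastocysts (-1.50 ± 0.10 SE, limma adjusted p = 4.03e-05). Ccnb2, the second B-type cyclin, stood at 31.9, 33.5 and 37.2 FPKM in p150DN, 60.5 and 73.1 FPKM in blastocyst and 32.4, 25.7 and 32.9 FPKM in EGFP 8-cell libraries. Its p150DN libraries overlapped the EGFP 8-cell ones (0.17 ± 0.14 SE, limma adjusted p = 0.374), while both blastocyst libraries were higher (2.2-fold, 1.12 ± 0.15 SE, limma adjusted p = 0.000667). The B-type cyclins thus moved in opposite directions between the stages. Ccna2, cyclin A2, which acts in S phase and G2, stood at 169.6, 193 and 154, then 109 and 118, then 214, 202 and 191 FPKM in the same groups. It fell in blastocysts (-0.83 ± 0.10 SE, limma adjusted p = 0.00042) and did not pass in p150DN (-0.23, adjusted p = 0.168). Its gene overlaps Exosc9 by 863 bases, and so its reads are uncertain. Cdk1, the kinase itself, stood at 51.4, 66 and 56.4 FPKM in p150DN, 35.8 and 39.7 FPKM in blastocyst and 49, 47 and 47.1 FPKM in EGFP 8-cell libraries. All p150DN libraries were above all others, but the difference did not pass (0.27 ± 0.13 SE, limma adjusted p = 0.138). The fall of Cdk1 in blastocysts (-0.33 ± 0.11 SE, limma adjusted p = 0.0285) was lost without blastocyst replicate 1 or 2 (adjusted p = 0.193 and 0.0665) or EGFP 8-cell replicate 1 (0.0852).

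Of the CDC25 phosphatases and the opposing kinase, Cdc25b and Cdc25c fell in both comparisons. Cdc25b, a starter phosphatase for CDK1 that mouse oocytes need to resume meiosis, stood at 4.24, 11.1 and 4.38 FPKM in p150DN, 3.56 and 3.46 FPKM in blastocyst and 14.2, 19.7 and 13.8 FPKM in EGFP 8-cell libraries. The groups did not overlap, and p150DN replicate 2 lay nearest to the EGFP 8-cell libraries. It was 2.42-fold lower in p150DN (-1.26 ± 0.32 SE, limma adjusted p = 0.0162) and 4.53-fold lower in blastocysts (-1.89 ± 0.19 SE, limma adjusted p = 0.000172). Cdc25c, a further activator of CDK1, ranged over 10.5 to 17.3 FPKM in p150DN, 12.4 to 13 FPKM in blastocyst and 19.4 to 26 FPKM in EGFP 8-cell libraries (-0.67 and -0.77 on the log2 scale, limma adjusted p = 0.0294 and 0.00363). The p150DN call of Cdc25b was lost without p150DN replicate 3 (adjusted p = 0.0609) or EGFP 8-cell replicate 2 (0.0572). That of Cdc25c was lost without p150DN replicate 1 or 3 (0.074 and 0.0737) or EGFP 8-cell replicate 1 or 2 (0.0813 and 0.0941). Cdc25a, which also acts at the start of S phase, overlapped between groups, at 32.4 to 51.2, 37.2 to 38.5 and 34.1 to 61.3 FPKM in p150DN, blastocyst and EGFP 8-cell libraries, and passed neither test (adjusted p = 0.343 and 0.216). Without EGFP 8-cell replicate 3, its lowest control library, the blastocyst difference passed (adjusted p = 0.0052). Wee1, the kinase that inhibits CDK1, stood at 12, 9.53 and 10.2 FPKM in p150DN, 16.3 and 17.5 FPKM in blastocyst and 13.1, 15.2 and 13.9 FPKM in EGFP 8-cell libraries. Its p150DN libraries lay below all others, but neither difference passed (adjusted p = 0.0872 and 0.135).

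Among the mitotic kinases, Plk1 fell in p150DN and Aurka in blastocysts, and Aurkb passed in neither, on the deposited scale. After median-of-ratios scaling Aurka and Aurkb also fell in p150DN (limma adjusted p = 0.0175 and 0.0338), and Aurkb and Plk1 in blastocysts (0.0289 and 0.0426). Plk1, the polo-like kinase that acts on centrosomes, kinetochores and mitotic entry, stood at 40.7, 38.4 and 54.5 FPKM in p150DN, 59.3 and 67.2 FPKM in blastocyst and 68.5, 72.7 and 62.2 FPKM in EGFP 8-cell libraries. Each p150DN library lay below all 5 EGFP libraries (-0.61 ± 0.15 SE, limma adjusted p = 0.0164), whereas blastocyst libraries overlapped those of EGFP 8-cell embryos (-0.10, adjusted p = 0.483). The p150DN call was lost without EGFP 8-cell replicate 1 or 2 (adjusted p = 0.0583 and 0.0535). Aurka, the Aurora kinase of spindle poles, which overlaps Cstf1 by 242 bases, was at 146 ± 11.8 FPKM in p150DN, 147 ± 9.79 FPKM in blastocyst and 184 ± 12.7 FPKM in EGFP 8-cell libraries (SD, n = 3, 2 and 3). Its log2 differences were -0.33 for p150DN (adjusted p = 0.0565) and -0.32 for blastocysts (adjusted p = 0.0326). The blastocyst call was lost without blastocyst replicate 1 or 2 (0.197 and 0.0689) or EGFP 8-cell replicate 1 or 3 (0.0751 and 0.0735). Aurkb, the kinase of the chromosomal passenger complex, was at 20 ± 2.42, 19.9 ± 3.4 and 23.1 ± 0.647 FPKM in the same groups (adjusted p = 0.294 and 0.218).

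Of the 4 spindle checkpoint genes, 3 rose and none fell in each comparison on the deposited scale. After median-of-ratios scaling none rose in p150DN, and in blastocysts Bub1b alone rose and Mad2l1 fell (adjusted p = 0.0265). Quantile normalization lost the p150DN rise of Bub1 (limma adjusted p = 0.0949) and kept those of Bub1b and Mad2l1. Bub1b, which encodes BUBR1, part of the complex that inhibits CDC20, stood at 37.3, 34.2 and 38.6 FPKM in p150DN, 45.9 and 51 FPKM in blastocyst and 27.1, 27.7 and 22.5 FPKM in EGFP 8-cell libraries. The 3 groups did not overlap, with p150DN in the middle (0.50 ± 0.14 SE, limma adjusted p = 0.0211 for p150DN, and 0.89 ± 0.14 SE, limma adjusted p = 0.00104 for blastocysts). Bub1, a kinetochore kinase that recruits the checkpoint proteins, stood at 26.8, 27 and 28.6 FPKM in p150DN, 29.2 and 28.7 FPKM in blastocyst and 21, 21.5 and 19.9 FPKM in EGFP 8-cell libraries. All p150DN and blastocyst libraries lay above the EGFP 8-cell ones (0.39 ± 0.12 SE, limma adjusted p = 0.0399 for p150DN, and 0.46 ± 0.11 SE, limma adjusted p = 0.0093 for blastocysts). Mad2l1, which encodes MAD2, the checkpoint protein that binds CDC20, stood at 56.4, 46.4 and 49.1 FPKM in p150DN, 30.1 and 38.2 FPKM in blastocyst and 39.2, 40.2 and 37.2 FPKM in EGFP 8-cell libraries. It rose in p150DN above both other groups (0.37 ± 0.13 SE, limma adjusted p = 0.0483) and did not pass in blastocysts (-0.19, adjusted p = 0.24). Ttk, the checkpoint kinase MPS1, ranged over 16.7 to 18.4 FPKM in p150DN, 19.5 to 20.6 FPKM in blastocyst and 14.7 to 15.8 FPKM in EGFP 8-cell libraries, and passed in blastocysts alone (0.36 ± 0.12 SE, limma adjusted p = 0.033). Most of these calls did not hold without single libraries. In p150DN, Bub1 was lost without any 1 of the 6 libraries (adjusted p = 0.0535 to 0.134), Bub1b without p150DN replicate 1 or 3 (0.0509 and 0.0821) or EGFP 8-cell replicate 1 or 3 (0.0555 and 0.0751). Mad2l1 was lost without p150DN replicate 1 or 3 or any EGFP 8-cell library (0.0795 to 0.131). In blastocysts, Bub1 was lost without blastocyst replicate 1 or 2 (0.0654 and 0.0567), and Ttk without either of them (0.105 and 0.173) or EGFP 8-cell replicate 1 or 3 (0.0959 and 0.0514).

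Of the genes around the anaphase-promoting complex, Ube2c fell in both comparisons, Cdc20 fell in blastocysts, and Fbxo5 and Pttg1 passed in neither. Ube2c, the ubiquitin-conjugating enzyme that works with the complex, was the most abundant member per length. It stood at 311, 259 and 221 FPKM in p150DN, 180.1 and 195 FPKM in blastocyst and 498, 437 and 383 FPKM in EGFP 8-cell libraries, without overlap. Its mean was 1.67-fold lower in p150DN (-0.74 ± 0.15 SE, limma adjusted p = 0.00725) and 2.34-fold lower in blastocysts (-1.22 ± 0.13 SE, limma adjusted p = 0.000235). Cdc20, the activator of the complex and target of the checkpoint, stood at 179, 205 and 203 FPKM in p150DN, 142 and 140.1 FPKM in blastocyst and 208, 237 and 219.9 FPKM in EGFP 8-cell libraries. The p150DN libraries lay just under the EGFP 8-cell ones without passing (-0.18, adjusted p = 0.253), and blastocysts were lower (-0.65 ± 0.10 SE, limma adjusted p = 0.00113). Fbxo5, which encodes the inhibitor EMI1, and Pttg1, which encodes securin, the guard of separase, overlapped between all groups. Fbxo5 was at 48.7 ± 8.29, 44 ± 4.14 and 48.2 ± 10.1 FPKM and Pttg1 at 30.1 ± 3.23, 34 ± 4.23 and 32 ± 8.42 FPKM in p150DN, blastocyst and EGFP 8-cell libraries (SD, n = 3, 2 and 3). EGFP 8-cell replicate 2 was the highest of the 8 libraries for both.

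**Figure D4:**
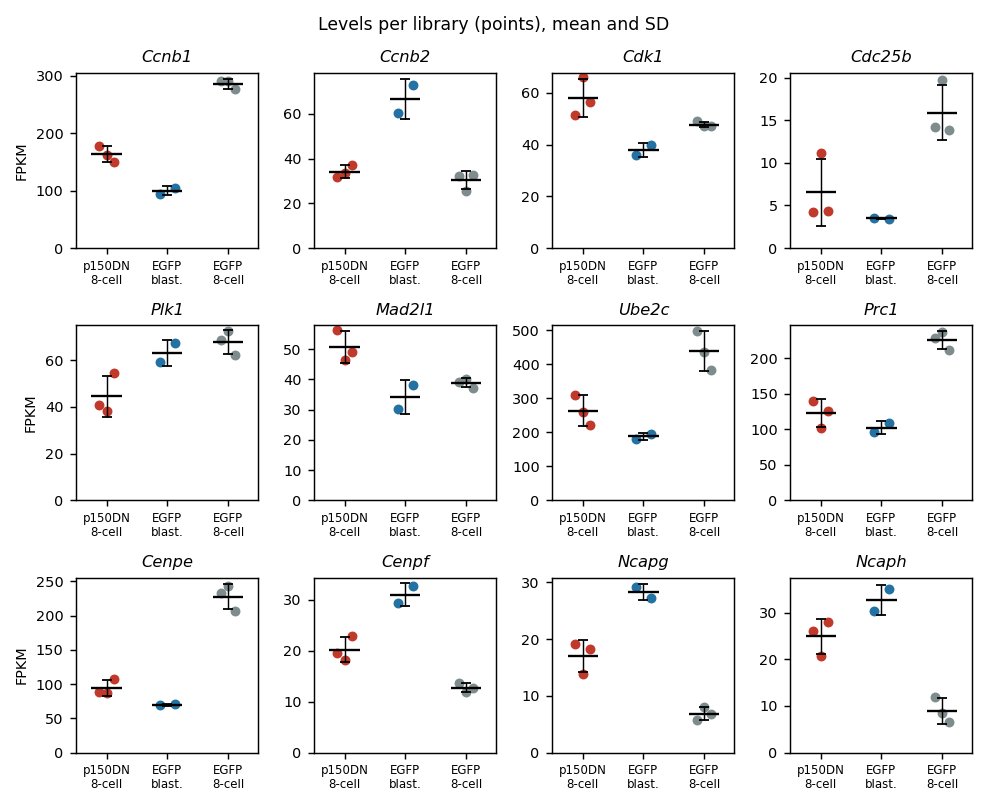
Each panel is 1 gene, the vertical axis is FPKM from 0, points are libraries, the black line is the group mean and the bar its SD. Groups from left to right are p150DN 8-cell (3 libraries), EGFP blastocyst (2) and EGFP 8-cell (3). Ccnb1, Cdc25b, Ube2c and Cenpe are lower, and Cenpf, Ncapg and Ncaph higher, in p150DN and blastocyst than in EGFP 8-cell libraries, while Plk1 is lowest and Mad2l1 highest in p150DN.

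Among the spindle motors and microtubule proteins, Prc1 and Tpx2 fell in p150DN, and in blastocysts 4 fell and 2 rose. Prc1 (chromosome 7, 80294445 to 80316259), which bundles microtubules of the central spindle, stood at 139.9, 102 and 126 FPKM in p150DN, 95.9 and 109 FPKM in blastocyst and 229, 237 and 211 FPKM in EGFP 8-cell libraries. Every p150DN and blastocyst library lay under every EGFP 8-cell library. The mean was 1.84-fold lower in p150DN (-0.88 ± 0.14 SE, limma adjusted p = 0.00208) and 2.21-fold lower in blastocysts (-1.14 ± 0.11 SE, limma adjusted p = 0.00014). Its gene overlaps Rccd1 over 21669 bases, and Rccd1 stood at no more than 3.38 FPKM in any library. Tpx2, which activates Aurora A and nucleates spindle microtubules, stood at 91.5, 107 and 94.1 FPKM in p150DN, 95 and 98.1 FPKM in blastocyst and 140.1, 132 and 122 FPKM in EGFP 8-cell libraries. Its falls were of like size in p150DN (-0.43 ± 0.12 SE, limma adjusted p = 0.0211) and blastocysts (-0.44 ± 0.10 SE, limma adjusted p = 0.00753). Kif20a and Kif23, kinesins of the central spindle and cytokinesis, passed in blastocysts alone (-0.40 and -0.58, limma adjusted p = 0.00861 and 0.00146). Kif23 was at 136 ± 3.05 FPKM in p150DN, 93.4 ± 3.77 FPKM in blastocyst and 141 ± 4.39 FPKM in EGFP 8-cell libraries, and Kif20a at 103 ± 9.49, 92.2 ± 4.53 and 122 ± 4.21 FPKM. Kif20a overlaps Cdc23 by 4930 bases, so its reads are uncertain. Kif11, the kinesin that pushes spindle poles apart, and Nusap1, a microtubule bundling protein whose gene overlaps Oip5 by 208 bases, rose in blastocysts (0.42 and 0.71, adjusted p = 0.0129 and 0.0195). Kif11 ranged over 53.1 to 63 FPKM in p150DN, 64.1 to 68.3 FPKM in blastocyst and 45.4 to 51.9 FPKM in EGFP 8-cell libraries, and Nusap1 over 17.5 to 20.9, 21.6 to 29.5 and 13.3 to 19.1 FPKM. In p150DN, Tpx2 was lost without p150DN replicate 1 or 3 (adjusted p = 0.0585 and 0.0768) or EGFP 8-cell replicate 1 or 2 (0.0994 and 0.0541), and Nusap1 passed without EGFP 8-cell replicate 2 (0.0492). In blastocysts, Tpx2, Kif20a and Kif11 were lost without blastocyst replicate 1 (0.0553, 0.0755 and 0.0502). Without blastocyst replicate 2, Kif11 and Nusap1 were lost (0.096 and 0.145), and without EGFP 8-cell replicate 1, Nusap1 (0.0611).

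The kinetochore genes Cenpe and Cenpf moved in opposite directions in both comparisons, although the rise of Cenpf in p150DN was lost after median-of-ratios scaling (adjusted p = 0.12). Cenpe (chromosome 3, 135212563 to 135273540), the kinesin that carries chromosomes to the spindle equator, stood at 88.8, 87.1 and 107 FPKM in p150DN, 69.1 and 71 FPKM in blastocyst and 233, 243 and 207 FPKM in EGFP 8-cell libraries. The groups did not overlap. Its mean was 2.41-fold lower in p150DN (-1.27 ± 0.13 SE, limma adjusted p = 0.000395) and 3.25-fold lower in blastocysts (-1.68 ± 0.11 SE, limma adjusted p = 3.81e-05). Cenpf (chromosome 1, 189640606 to 189688107), a large protein of the outer kinetochore, stood at 19.5, 18.2 and 22.9 FPKM in p150DN, 29.5 and 32.7 FPKM in blastocyst and 13.6, 11.8 and 12.7 FPKM in EGFP 8-cell libraries. Again the groups did not overlap, but in the reverse order. It was 1.59-fold higher in p150DN (0.63 ± 0.15 SE, limma adjusted p = 0.0121) and 2.45-fold higher in blastocysts (1.23 ± 0.13 SE, limma adjusted p = 0.000223). Birc5, survivin of the chromosomal passenger complex, stood at 44.4, 31.1 and 41.2 FPKM in p150DN, 63.4 and 67.3 FPKM in blastocyst and 31.1, 29.4 and 30.1 FPKM in EGFP 8-cell libraries. It rose in blastocysts (2.16-fold, 1.09 ± 0.11 SE, limma adjusted p = 0.00015) and did not pass in p150DN (0.34, adjusted p = 0.116). Without p150DN replicate 3 the call of Cenpf was lost (adjusted p = 0.0567), and without p150DN replicate 2 that of Birc5 was gained (0.0208).

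The chromosome structure genes held the largest rises of the members. Ncaph (chromosome 2, 127103809 to 127133954), the kleisin subunit of condensin I, stood at 26.1, 20.6 and 28 FPKM in p150DN, 30.5 and 35.1 FPKM in blastocyst and 12, 8.46 and 6.53 FPKM in EGFP 8-cell libraries. Ncapg (chromosome 5, 45669891 to 45700547), a HEAT-repeat subunit of the same complex, stood at 19.1, 13.8 and 18.3 FPKM in p150DN, 29.2 and 27.3 FPKM in blastocyst and 5.69, 8.03 and 6.78 FPKM in EGFP 8-cell libraries. For both, the groups did not overlap and p150DN lay between the EGFP stages. Ncapg overlaps Lcorl over 3367 bases, and Lcorl stood at no more than 1.93 FPKM in any library. Ncaph was 2.77-fold higher in p150DN (1.40 ± 0.22 SE, limma adjusted p = 0.00216) and 3.64-fold higher in blastocysts (1.79 ± 0.23 SE, limma adjusted p = 0.000542). Ncapg was 2.49-fold higher in p150DN (1.20 ± 0.19 SE, limma adjusted p = 0.00212) and 4.13-fold higher in blastocysts (1.91 ± 0.17 SE, limma adjusted p = 0.000102). Of the core ATPases shared by condensin I and II, Smc2 stood at 36.1, 39.6 and 39.7 FPKM in p150DN, 44.6 and 45.7 FPKM in blastocyst and 21.8, 24.4 and 29.1 FPKM in EGFP 8-cell libraries. It rose in both comparisons (0.61 ± 0.14 SE, limma adjusted p = 0.0121 for p150DN, and 0.83 ± 0.15 SE, limma adjusted p = 0.00198 for blastocysts), although the p150DN call was lost without EGFP 8-cell replicate 1 (adjusted p = 0.0578). Its partner Smc4 was more abundant per length, at 95.1 ± 14.5 FPKM in p150DN, 112 ± 8.66 FPKM in blastocyst and 92.6 ± 5.58 FPKM in EGFP 8-cell libraries, and passed in neither (adjusted p = 0.893 and 0.0629). Top2a, the topoisomerase that untangles sister chromatids, was at 99.5 ± 16.2, 126 ± 7.43 and 94.4 ± 11.7 FPKM in the same groups (SD, n = 3, 2 and 3). Its p150DN and EGFP 8-cell libraries overlapped (adjusted p = 0.75), and its rise in blastocysts (0.42 ± 0.13 SE, limma adjusted p = 0.0221) was lost without blastocyst replicate 1 or 2 (0.0587 and 0.131). Mki67, the coat protein of mitotic chromosomes, went the other way, at 28.2, 36.5 and 35.5 FPKM in p150DN, 54.3 and 39.6 FPKM in blastocyst and 64, 53.5 and 48.4 FPKM in EGFP 8-cell libraries. Each p150DN library lay below all 5 EGFP libraries (-0.71 ± 0.16 SE, limma adjusted p = 0.00888), and the difference between the stages did not pass (-0.24, adjusted p = 0.261).

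Ratios within a library, which do not depend on the scaling between libraries, were computed for pairs of the same role and are described without a test. The pairs were chosen with earlier results of these data known, and no share over other gene pairs was computed. Cenpe exceeded Cenpf 4.54 to 4.78-fold in p150DN, 2.17 to 2.34-fold in blastocyst and 16.3 to 20.6-fold in EGFP 8-cell libraries. The Smc4 to Ncapg ratio was 5.5 to 5.7 in p150DN, 3.61 to 4.32 in blastocyst and 10.7 to 17 in EGFP 8-cell libraries. The ratio of Ccnb1 to Ccnb2 was 5.57, 4.85 and 4.04 in p150DN, 1.57 and 1.44 in blastocyst and 8.99, 11.3 and 8.39 in EGFP 8-cell libraries. In each of these 3 ratios, of 5 computed, the groups did not overlap and p150DN lay in between. The Cdc25a to Cdc25b ratio was 4.61 to 8.47 in p150DN, 10.4 to 11.1 in blastocyst and 2.47 to 3.9 in EGFP 8-cell libraries. It ran in the opposite sense, also without overlap and with p150DN in between. The order of the Cenpe to Cenpf ratio is fixed by the levels of both genes given above. Ccnb1, Ncapg and Cdc25b also lay in between by level alone, so these ratios are not results separate from the levels. The Smc2 to Ncaph ratio was 1.38, 1.92 and 1.42 in p150DN, 1.46 and 1.3 in blastocyst and 1.81, 2.88 and 4.47 in EGFP 8-cell libraries, and there p150DN overlapped both other groups. All 34 genes together summed to 2359 to 2419 FPKM in p150DN, 2109 to 2274 FPKM in blastocyst and 2867 to 3119 FPKM in EGFP 8-cell libraries. Unlike the ratios, these sums depend on the scaling between libraries.

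**Figure D5:**
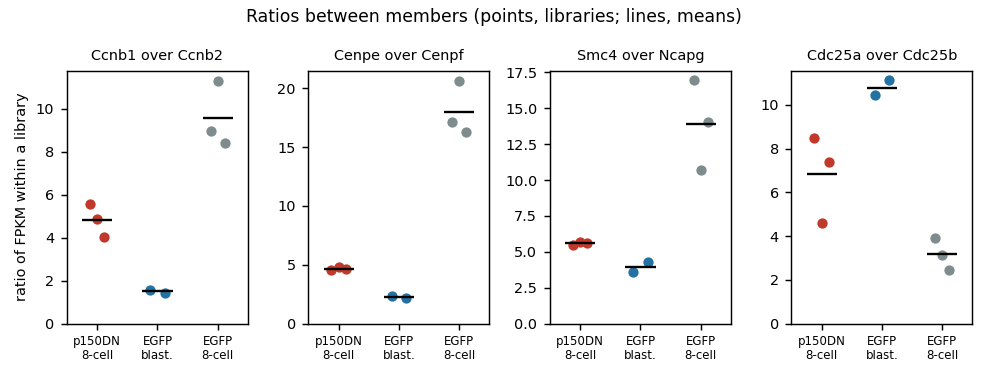
Each panel gives the ratio of 2 members' FPKM within a library on an axis from 0, with points for libraries and a line for the group mean. Groups from left to right are p150DN 8-cell, EGFP blastocyst and EGFP 8-cell. Cenpe over Cenpf is 4.54 to 4.78 in the p150DN libraries and 16.3 to 20.6 in the EGFP 8-cell libraries.

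Calls were counted by level, and a difference between the level classes was not tested. Of the 11 members with a mean of at least 100 FPKM over the 8 libraries, none rose and 5 fell in p150DN, and 1 (Top2a) rose and 10 fell in blastocysts. Of the 20 under 50 FPKM, 7 rose and 3 fell in p150DN, and 10 rose and 3 fell in blastocysts. Of the 7 rises in p150DN, 5 were lost after median-of-ratios scaling, and that of Bub1 alone after quantile normalization. Among all genes of at least 100 FPKM (751), 145 rose and 151 fell in p150DN, and 274 rose and 265 fell in blastocysts. Among all genes under 50 FPKM, 2574 of 10065 rose and 779 fell in p150DN, and 4633 of 10534 rose and 2420 fell in blastocysts, so rises outnumbered falls there as among the members. In p150DN the median log2 fold change under 50 FPKM was 0.22 for the members and 0.22 for all genes. Across the 34 genes, mean level and log2 fold change had a Spearman rho of -0.43 for p150DN and -0.55 for blastocysts, and across all genes -0.18 and -0.13. The level includes the compared libraries, and genes of a library share its depth, so these are descriptions. The members stood high in every library, with a median percentile of 89.1 to 91.1 in p150DN, 90.7 to 91.2 in blastocyst and 89 to 89.6 in EGFP 8-cell libraries among genes above 0.

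Where the p150DN libraries stood relative to both EGFP stages was read from library values, without a test. They lay between the stages without overlap in 14 members, above both in 2 (Cdk1 and Mad2l1) and below both in 3 (Wee1, Plk1 and Mki67). Over all 11730 genes these shares were 27.3%, 4.66% and 1.88%. In the other 15 members at least 1 pair of groups overlapped.

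Of 136 further genes of G2 and mitosis, 135 were tested for p150DN, and 21 rose, 20 fell and 94 did not pass, with a median of 0.06. The share called was 30.4%, 15.6% higher and 14.8% lower, against 34.3% of all genes, 24.6% higher and 9.68% lower. Between the stages 53 rose, 32 fell and 50 did not pass, with a median of 0.22, and 63.0% were called against 67.5% of all genes. Both totals were near the background. By function, kinetochore genes counted 6 higher and 5 lower of 41 in p150DN, and spindle and centrosome genes 6 and 6 of 34. Cohesin and condensin genes counted 1 higher and 3 lower of 17, genes of the anaphase-promoting complex 1 and 2 of 16, G2 control genes 5 and 3 of 17, and transcriptional regulators 2 and 1 of 10. The largest rises in p150DN were Gtse1, Lin37 and Zwint. Gtse1, a microtubule-associated protein of G2 and M, stood at 53.4, 61 and 54.9 FPKM in p150DN libraries, against 18.1, 12.6 and 14.8 FPKM in EGFP 8-cell libraries (1.84 ± 0.16 SE). Lin37, a subunit of the MuvB complex, stood at 23.8, 15.4 and 23.5 FPKM in p150DN libraries, against 7.14, 5.59 and 6.63 FPKM in EGFP 8-cell libraries (1.54 ± 0.20 SE). Zwint, which links the outer kinetochore to checkpoint proteins, stood at 33.2, 29.5 and 37.3 FPKM in p150DN libraries, against 11.8, 10.2 and 10.8 FPKM in EGFP 8-cell libraries (1.52 ± 0.15 SE). All 3 lay above every EGFP 8-cell library. The largest falls were Aurkc, Racgap1 and Haus6. Aurkc, the Aurora kinase of germ cells and early embryos, stood at 8.6, 12 and 9.31 FPKM in p150DN libraries, against 26.1, 34.7 and 20.2 FPKM in EGFP 8-cell libraries (-1.33 ± 0.21 SE). Racgap1, the partner of KIF23 in the central spindle, stood at 66, 79.5 and 57.7 FPKM in p150DN libraries, against 141, 148 and 130.5 FPKM in EGFP 8-cell libraries (-1.04 ± 0.14 SE). Haus6, of the augmin complex that branches spindle microtubules, stood at 31.3, 46.7 and 37.9 FPKM in p150DN libraries, against 74.7, 89.7 and 69.1 FPKM in EGFP 8-cell libraries (-1.003 ± 0.17 SE). These 6 had limma adjusted p from 0.000211 to 0.00304. In blastocysts the largest rises were Fam83d (2.19 ± 0.27 SE), Ckap2l (2.11 ± 0.17) and Zwint (2.10 ± 0.13), and the largest falls Aurkc (-2.57 ± 0.29), Haus6 (-1.80 ± 0.14) and Dsn1 (-1.79 ± 0.15), with limma adjusted p from 3.71e-05 to 0.000431.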

How the data were processed

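RNA was sequenced from 8 embryo libraries, built, per the labels, with a SMART-seq kit that keeps strand, and 65 other samples of the series were not analysed here. The authors deposited FPKM values for 25220 gene symbols, per the file headers. HISAT2, featureCounts, Bowtie2, SAMtools, Trim Galore and the build mm10 are named in the submitters' processing notes. The sources used here give neither the annotation nor the strand setting, so overlapping genes are uncertain. FPKM fixes the total per library, so a change in RNA per embryo cannot be seen. Columns whose names give the 8-cell stage and no treatment were assigned to the EGFP 8-cell group, the only 8-cell RNA-seq group without p150DN. Fragments were recovered from the values of short genes, and all 34 members came out whole within 0.02. Replicates differed beyond counting noise over 212 to 219 genes of the lists used here (chi-square per gene 35.8 to 104). Part of this may be technical. Each library was taken as 1 replicate.

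Each comparison was fitted to its own libraries on the log2(FPKM + 1) scale by limma 3.58.1 under R 4.3.3, with a mean-variance trend and two-sided tests. Genes entered with 1 FPKM or more in 3 libraries (p150DN) or 2 libraries (stages), and p-values were adjusted over all of them by Benjamini-Hochberg. The pseudocount understates changes of weak genes. The labels also name a table of read counts, which was not analysed here. No count test was run, since the values analysed are FPKM and fragments were recovered only for the listed genes, to give their depth. The limma fit alone was tried on simulated libraries with independent noise. These held no difference in scaling between libraries, so they cannot check the calls that depend on the scaling. Coordinates, promoter windows and overlaps are from RefSeq GRCm38.p6, the assembly of mm10, which matched 24920 symbols (98.8%). The members, lists and tests were chosen with earlier results of these data known. All members are named, and of the other G2 and mitosis genes the 3 largest called rises and falls per comparison whose mean reached 5 FPKM and whose groups did not overlap. Alternatives were other pseudocounts, filters, scalings and models, a replicate block and leaving out libraries.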

Additional observations from a re-analysis of the deposited data

How the results depend on the processing

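For p150DN, 16 alternatives were run, and 6 of the 16 called members were called in all of them (Ccnb1, Prc1, Cenpe, Mki67, Ncapg and Ncaph). Between the stages 16 of 25 were called in all 14. Of 544 values for p150DN, 450 kept direction and call, 54 lost the call, 16 gained one and 24 changed sign, and of 476 between the stages these were 417, 41, 12 and 6. All changes of sign were in members that had not passed. Median-of-ratios scaling gave 2 members higher and 15 lower for p150DN and 7 higher between the stages, against 7, 9 and 12. The same scaling over tested genes only, added after seeing the data, gave 2, 15 and 7 as well. Under the first, p150DN signs turned for Ccnb2 (-0.11), Cdk1 (-0.020), Ttk (-0.11), Fbxo5 (-0.26), Kif11 (-0.032), Top2a (-0.22) and Smc4 (-0.26), and the stage sign for Pttg1 (-0.11). Under the second they turned for Ccnb2 (-0.039), Ttk (-0.037), Fbxo5 (-0.19), Top2a (-0.15) and Smc4 (-0.19), and between the stages for Wee1 (-0.035), Pttg1 (-0.18) and Smc4 (-0.034). Leaving out 1 library gave 3 to 7 members higher, 5 to 9 lower and 2238 to 3553 genes called for p150DN, and 7 to 12, 9 to 13 and 5459 to 8144 between the stages. The p150DN count of higher members fell to 4 without p150DN replicate 1 or EGFP 8-cell replicate 3 and to 3 without p150DN replicate 3 or EGFP 8-cell replicate 1, and that of lower members to 5 without EGFP 8-cell replicate 2. The p150DN count of genes was 2238 without p150DN replicate 3 and 2560 without EGFP 8-cell replicate 1, and both stage minima came without blastocyst replicate 2 (7 members higher, 5459 genes). Over these, log2 fold changes that turned sign ranged for p150DN over Fbxo5 -0.11 to 0.18, Pttg1 -0.17 to 0.14, Top2a -0.046 to 0.19, Smc4 -0.047 to 0.16, and between the stages over Fbxo5 -0.24 to 0.046, Pttg1 -0.014 to 0.31. Without both p150DN replicates 2 and 3, which assumes that the lone library varies like the controls, 2 members were higher, 8 lower and 2314 genes called, and Fbxo5 (-0.17) and Top2a (-0.16) turned sign. Deviations of same-numbered libraries were at most weakly correlated (r = 0.06, 0.10 and 0.03 for p150DN, -0.03 and -0.02 between the stages). Replicates 2 and 3 of p150DN each correlated best with the same-numbered EGFP 8-cell library, and p150DN replicate 1 with EGFP 8-cell replicate 3 (0.08). With a replicate block 5 members were higher and 9 lower for p150DN, and 10 and 12 between the stages. With it Bub1 (adjusted p = 0.0687) and Mad2l1 (0.0653) no longer passed for p150DN, nor Cdk1 (0.0802), Aurka (0.124), Ttk (0.0754) and Top2a (0.0804) between the stages, where Cdc25a passed (0.0103). Quantile normalization gave 6 and 10 for p150DN. Causes were not tested. With 2 or 3 libraries a group, small changes such as those of the checkpoint genes are at the limit of what passes.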
